A study of Mus musculus with 2 samples.

Results

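The genes described here are 10 components of transforming growth factor beta (TGF-beta) signalling: Tgfb1, Tgfbr1, Tgfbr2, Smad2, Smad3, Smad4, Smad7, Ski, Skil and Smurf2. They are 10 of the 21883 protein-coding genes placed on the standard chromosomes by RefSeq, and were taken by name from the pathway. No measured value set the choice, but earlier results of these data were known when it was made. Acetylation of histone H3 at lysine 27 (H3K27ac), found at active promoters and enhancers, was profiled in colonic macrophages of C57BL/6 mice by CUT&Tag, in which an antibody guides a transposase to marked chromatin. The cells were sorted as positive for CD64, low for Ly6C and negative for Siglec-F, and came from untreated male mice aged 11.1 weeks. The WT mice carried Lyz2-Cre, a recombinase expressed from the lysozyme promoter in myeloid cells, and the Tle4cKO mice carried Lyz2-Cre and a floxed Tle4 gene (Tle4f/f Lyz2-Cre). Tle4 encodes a Groucho-family corepressor.

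Cells of 4 mice per genotype were pooled before the assay, so each genotype is represented by 1 library and no difference has a replicate check. Each library was deposited as a list of summits, the positions of 1 base at which called peaks are highest, each with a score, taken to be a −log10 p- or q-value for the peak. The WT list held 10474 summits and the Tle4cKO list 2350, or 4.46 WT summits for each Tle4cKO summit. Read depth is unknown, and a gene without a summit in the shorter list may still carry signal below the calling threshold. Fewer cells, fewer reads and less acetylation per cell cannot be told apart in such lists. Scores are the authors' values for single peaks and were ranked within a list only. Neither list had a summit in Tle4 or within 50 kb of it, so the summits give no check of the deletion.

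The sorted cells were checked against 15 macrophage genes. WT summits lay in or within 10 kb of 9 of them, including Cd68, Csf1r, Cx3cr1, Mertk and Fcgr1, which encodes CD64. C1qa, C1qb, C1qc, Cd163, Itgam and Lyz2 had none. None of the 15 had a Tle4cKO summit in this window, where WT summits were found for 39.2% of all protein-coding genes and Tle4cKO summits for 11.6%. The identity of the cells in that library can thus not be read from these markers. For markers of other cells, the genes with a WT summit in the same window were 4 of 6 for endothelium, 3 of 6 for B and plasma cells, 2 of 6 for T cells, 1 of 6 for neutrophils, 1 of 8 for epithelium and 1 of 8 for fibroblasts and muscle. They included Cdh1 of epithelium, Pdgfrb of fibroblasts and muscle, and Cd3g and Cd4 of T cells, while Epcam, Col1a1 and Cd3e had none. The WT summits of Cdh1, Pdgfrb and Cd3g lay outside these genes, that of Cd3g at an end of Ube4a. The Cd4 summit lay at an end of Cd4 and of Gpr162. The marker genes with a Tle4cKO summit in this window were 1 endothelial and 1 plasma cell gene. Pecam1 scored 6.23 in each library with summits 17 bp apart, and Jchain scored 2.77 in WT and 2.10 in Tle4cKO with summits 99 bp apart. The part of other cells in the summits below was not tested.

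TGF-beta is secreted in a latent form and, once released, binds a type II receptor kinase, which activates a type I receptor kinase. The type I receptor phosphorylates Smad2 and Smad3, which join Smad4, enter the nucleus and regulate genes. Smad7 and the ubiquitin ligase Smurf2 limit the receptors, and the corepressors Ski and SnoN (the product of Skil) limit Smad activity in the nucleus. In the intestine the pathway is known for restraining inflammation and for shaping tissue-resident macrophages.

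In WT macrophages every one of the 10 genes had a summit in the gene or within 50 kb, and 5 also had a Tle4cKO summit in that window (Tgfb1, Tgfbr1, Tgfbr2, Skil and Smurf2). The other 5 genes, Ski and the Smad genes, had WT summits alone. At only 3 of the 10 genes, Tgfbr1, Tgfbr2 and Skil, did a WT and a Tle4cKO summit lie within 500 bp of each other, the distance used here for a shared site. All 3 shared sites were less than 1 kb from an outer end of the gene itself. The same window held a WT summit for 59.6% of all protein-coding genes, a Tle4cKO summit for 22.9%, both for 22.0% and a shared site for 19.2%. The members' counts of 10, 5, 5 and 3 of 10 stood above these shares, but by few genes. The window grows with the gene, and the members' median length was 68.7 kb against 17.2 kb for all protein-coding genes. None of the 10 had a Tle4cKO summit alone in this window, but within 10 kb Tgfb1 did.

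In all, 24 WT and 5 Tle4cKO summits belonged to the 10 genes, none of them counted for more than 1 gene. Each gene had 2 or 3 WT summits and at most 1 Tle4cKO summit. Of the 24 WT summits, 7 lay at an outer end of the gene (within 1 kb), 2 lay deeper inside it, 3 lay at the end of another protein-coding gene, 4 in the body of another protein-coding gene and 8 between protein-coding genes. Among these 8 were summits in the long noncoding RNA genes Gm4668, Gm33641 and Gm52713. The 9 summits in or at the end of the gene were spread over 8 of the 10 genes, and Tgfb1 and Ski had none. Of these 9 summits 3 were shared, and of the 15 elsewhere in the windows none was. Over the whole WT list 18.0% were shared. That share was not split by place, so whether the contrast is particular to these genes was not tested. Of the 5 Tle4cKO summits, the 3 at the ends of Tgfbr1, Tgfbr2 and Skil were shared, while that near Tgfb1 and that at Polg2, in the Smurf2 window, were not.

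**Figure D1:**
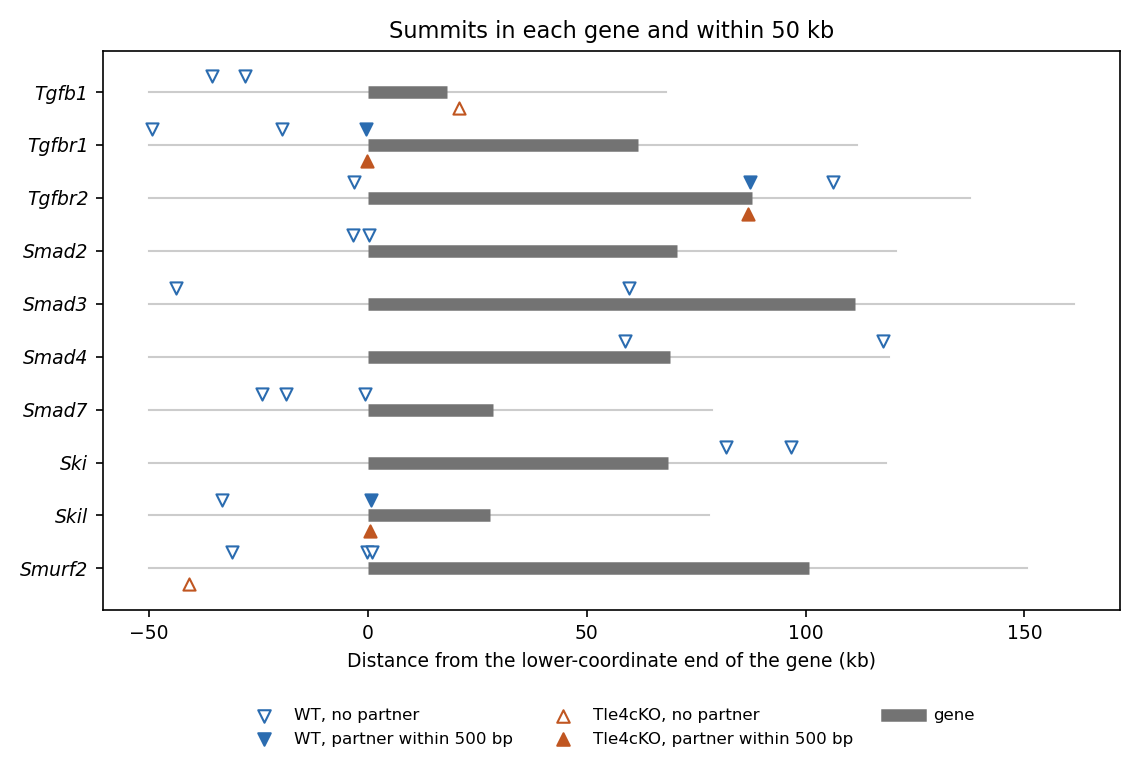
Positions of WT (blue, above) and Tle4cKO (orange, below) summits of the 10 genes, as distance in kb from the lower-coordinate end of each gene. Grey bars are genes, thin lines the window of 50 kb on each side, and filled symbols mark the 3 pairs within 500 bp, at the ends of Tgfbr1, Tgfbr2 and Skil.

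Tgfb1, which encodes the ligand, had no summit inside it or at its ends in either library. It lies at chr7:25687002-25705077 (mm10) on the plus strand. The nearest WT summit, at position 25658967, lay 28035 bp before its start site and had a score of 13.3, rank 246 of 10474. That summit lay 185 bp from the end of Bckdha, a subunit gene of the branched-chain keto acid dehydrogenase, and 186 bp from that of Exosc5, an RNA exosome gene. Start sites of both neighbours lay within 1 kb of it. A weaker WT summit of 2.35 (rank 9978) lay at 25651347 in the body of Bckdha. The Tle4cKO summit had a score of 4.25 (rank 1084 of 2350) and lay at 25707753, 2676 bp beyond the far end of Tgfb1. The nearest summits of the 2 libraries were 48786 bp apart, so that the presence of both in this window describes different places.

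Tgfbr1 and Tgfbr2, the genes of the type I and type II receptors, each carried a WT and a Tle4cKO summit at the start of the gene. Tgfbr1 (chr4:47353222-47414926, plus strand) had a WT summit 499 bp before its start site, at 47352723, with a score of 2.28 and rank 10064 of 10474. Its Tle4cKO summit, at 47353055, lay 167 bp before the start and 332 bp from the WT summit. Both summits also lay in the long noncoding RNA gene Gm32435, so they cannot be assigned to Tgfbr1 alone. The Tle4cKO score was 1.79, rank 2332 of 2350, with 18 lower scores in that list. Both calls were thus among the weakest of their lists. The second start site that RefSeq lists for Tgfbr1, at 47386216, was without a summit in either list within 1 kb.

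At Tgfbr2 (chr9:116087695-116175363, minus strand) the WT summit at 116175018 lay 345 bp inside the gene from its start site and scored 6.52, rank 2184. A listed start site of Gm40582 also lay within 1 kb of this WT summit. The Tle4cKO summit at 116174576 lay further in, 787 bp from the start, and scored 2.59, rank 2036 of 2350. The pair were 442 bp apart. Among all 1883 shared WT summits the median distance to the partner was 91 bp, 10.4% had a partner at least 332 bp away and 2.39% at least 442 bp away. The receptor pairs were therefore wide for shared sites, and at Tgfbr2 the distance was near the limit of 500 bp.

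The 250 bases before each of these start sites are shown because the receptor genes are the members with a listed start site and a summit beside it. The sequences are from RefSeq (GRCm38.p6, the assembly behind mm10), run 5′ to 3′ along the gene's strand and end at the base before the start. Capitals mark matches, on either strand, to letters known from transcription factor binding: CAGAC and the palindrome GTCTAGAC for Smad proteins, TGAGTCA with its reverse complement TGACTCA for AP-1 factors, GAGGAA for the myeloid factor PU.1, and TGTGGT for Runx factors. The Tgfbr1 window spans chr4:47352972-47353221 and holds the Tle4cKO summit. The Tgfbr2 window spans chr9:116175364-116175613, and its summits lie beyond it, inside the gene.
Tgfbr1: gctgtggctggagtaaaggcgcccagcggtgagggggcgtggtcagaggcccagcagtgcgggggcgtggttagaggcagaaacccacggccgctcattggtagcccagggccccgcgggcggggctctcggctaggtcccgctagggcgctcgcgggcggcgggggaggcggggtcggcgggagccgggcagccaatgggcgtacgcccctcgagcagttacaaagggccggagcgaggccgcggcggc
Tgfbr2: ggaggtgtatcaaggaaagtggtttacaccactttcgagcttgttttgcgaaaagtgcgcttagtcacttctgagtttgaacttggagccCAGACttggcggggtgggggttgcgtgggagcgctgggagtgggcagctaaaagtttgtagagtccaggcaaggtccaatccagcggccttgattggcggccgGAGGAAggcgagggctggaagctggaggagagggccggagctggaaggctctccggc

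The Tgfbr1 window had a GC content of 74.8% and 29 CpG dinucleotides, and the Tgfbr2 window 58.4% and 12. Medians over all 32851 listed start sites were 52.4% and 6. In this Tgfbr1 window none of the letters was found. The window before the second Tgfbr1 start, which had no summit within 1 kb, had a GC content of 52.8% and 3 CpG dinucleotides, and held CAGAC from 203 and GAGGAA from 95 bases before that start. The Tgfbr2 window held CAGAC, starting 160 bases before the start site, and GAGGAA, starting 57 bases before it. Of all windows of this length, 42.2% held CAGAC, 23.3% GAGGAA, 14.0% TGTGGT, 4.46% TGAGTCA or its reverse complement TGACTCA, and 0.167% GTCTAGAC. A match is a description of the letters and does not show binding. Of the other members with an entry, Ski, Smad3, Smurf2 and Tgfb1, GC content ranged from 69.2% at Smad3 to 87.6% at Ski, and no summit lay within 1 kb of their start sites. The Smurf2 window also held CAGAC and GAGGAA, and the windows of Ski, Smad3 and Tgfb1 none of the letters. GC-rich starts were therefore found with and without a called summit. Skil, Smad2, Smad4 and Smad7 had no entry.

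Of the 6 members with a listed start site, 2 had a WT summit and a Tle4cKO summit within 1 kb of it. Among all 17491 protein-coding genes with a listed start, 25.0% had a WT summit there and 6.92% a Tle4cKO summit. Beyond their starts, the receptor genes had WT summits with no partner. One between Col15a1 and Tgfbr1, at 47333654, scored 5.59 (rank 3273) and lay 19401 bp from the nearest Tle4cKO summit. It scored higher than the Tgfbr1 start summit that was shared. One in Col15a1, at 47303878 and within 1 kb of a start site of Gm52732, scored 2.61 (rank 9581) and lay 42836 bp from a Tle4cKO summit. At Tgfbr2, a summit of 5.66 (rank 3137) at 116084398, 3297 bp beyond the lower-coordinate end of the gene, lay 90178 bp from the nearest Tle4cKO summit. A further summit of 3.21 (rank 8249) at 116194011, in the long noncoding RNA gene Gm4668, lay 19435 bp from it.

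**Figure D2:**
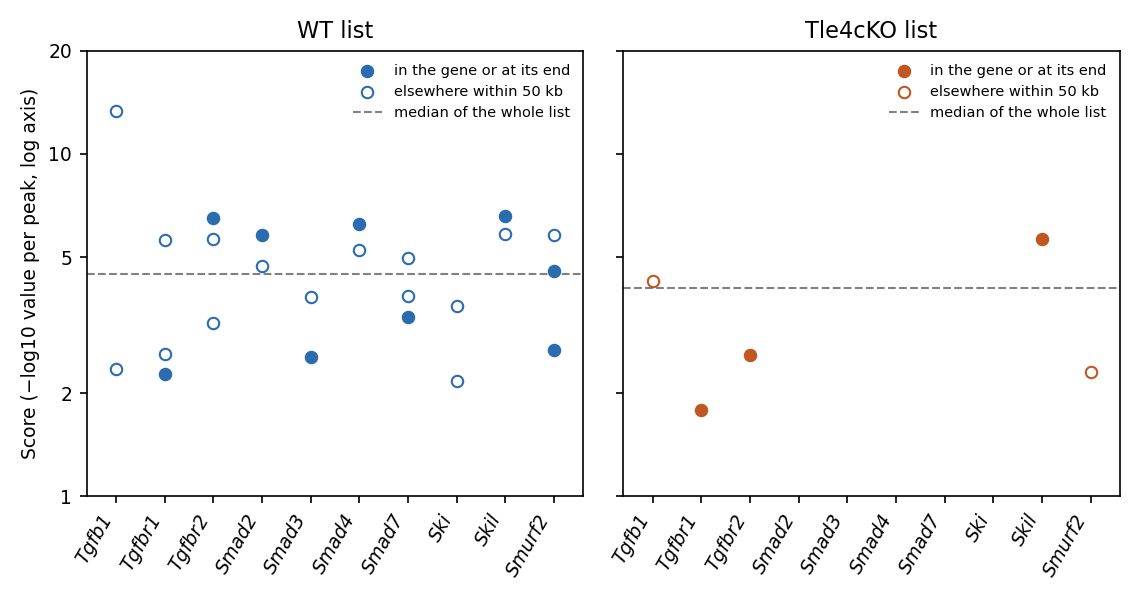
Scores of the members' summits in the WT list (left) and the Tle4cKO list (right), on a log axis, with filled points for summits in the gene or within 1 kb of its ends. Dashed lines are the medians of the whole lists, 4.47 and 4.05, and scores of different lists are not on a common scale.

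None of the Smad genes had a Tle4cKO summit within 50 kb. Smad2, which encodes a receptor-activated Smad, lies at positions 76241090 to 76311748 of chromosome 18. It had a WT summit of 5.80 (rank 2983) at 76241376, 286 bp inside its lower-coordinate end, and another of 4.70 (rank 4778) at 76237625, 3465 bp outside that end. The nearest Tle4cKO summit lay 1458513 bp away, and no other protein-coding gene lay in the window. Smad2 was thus marked at 2 places in WT in a stretch of over a megabase with no Tle4cKO call. Such stretches were not counted over the genome, so this one cannot be read as particular to Smad2. Smad3, the gene of the other receptor-activated Smad, lies at 63646766 to 63757994 of chromosome 9. It had no summit within 1 kb of its start site. A WT summit of 2.56 (rank 9668) lay in its body at 63706438, 51556 bp from the start. The other WT summit of its window, 3.82 (rank 6747) at 63602834, lay 204 bp from the end of Aagab and 308 bp from that of Iqch. Start sites of both these neighbours lay within 1 kb of it. The summit in the body was 307521 bp from the nearest Tle4cKO summit, and the one at Aagab 203917 bp.

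Smad4, the common partner of the activated Smads (73634790 to 73703791 of chromosome 18), had a WT summit of 6.26 (rank 2474) at 73693491, inside the gene and 10300 bp from its higher-coordinate end. This was the highest WT score inside or at the ends of a Smad member. The nearest Tle4cKO summit was 121200 bp away. A WT summit of 5.25 (rank 3808) at 73752376, 48585 bp beyond the gene, lay in the body of Elac1, a tRNA-processing gene. Smad7, the inhibitory Smad (75367365 to 75395935 of chromosome 18), had 3 WT summits, all outside its lower-coordinate end. The nearest, at 75366685, lay 680 bp out in the long noncoding RNA gene Gm20544 and scored 3.34 (rank 7889). Those at 75348727 and 75343048, 18638 and 24317 bp out with no protein-coding gene around them, scored 4.97 (rank 4270) and 3.84 (rank 6691). The more distant pair thus scored above the summit at the gene. The nearest Tle4cKO summits were 563936, 569615 and 587573 bp from the outermost, middle and nearest of the 3. No background was counted for such distances.

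Ski and Skil encode related corepressors that bind Smad complexes, and were marked at different places. Skil, at 31095058 to 31122923 of chromosome 3, had a WT summit of 6.57 (rank 2124) at 31095716 and a Tle4cKO summit of 5.63 (rank 567 of 2350) at 31095613. These lay 658 and 555 bp inside its lower-coordinate end and 103 bp from each other. Of all shared WT summits, 46.6% had a partner at least this far away. Skil had the highest score inside or at the end of a member in each list, and was the only member with a Tle4cKO summit scoring at least 5. A second WT summit, 5.84 (rank 2924) at 31061632, lay 33426 bp outside the same end in the long noncoding RNA gene Gm33641, and 33981 bp from the nearest Tle4cKO summit. Ski, at 155154075 to 155222535 of chromosome 4 on the minus strand, had no summit in the gene or at its ends. Its WT summits lay before its start. One of 3.59 (rank 7297) at 155235796 lay 13261 bp before that start, in the long noncoding RNA gene Gm52713. The other, 2.18 (rank 10169) at 155250795, lay 28260 bp before it in the body of Faap20, within 1 kb of a Faap20 start site. The nearest Tle4cKO summits were 168616 and 183615 bp from these.

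Smurf2 (106820061 to 106920747 of chromosome 11, minus strand), the ubiquitin ligase gene, was marked at its far end and not at its start. WT summits of 2.68 (rank 9374) at 106819844 and 4.54 (rank 5102) at 106821059 lay 217 bp outside and 998 bp inside its lower-coordinate end, about 100 kb from its start site at 106920715. The first of these also lay 983 bp from an end of Cep95, the gene of a centrosomal protein. A further WT summit, 5.80 (rank 2983) at 106788987, lay at the ends of Ddx5, an RNA helicase gene, and Cep95, with start sites of both within 1 kb. The Tle4cKO summit of the window, 2.31 (rank 2180) at 106779281, lay 256 bp from the end of Polg2, which encodes a subunit of the mitochondrial DNA polymerase, and 9706 bp from the Ddx5 summit. A Polg2 start site lay within 1 kb of this Tle4cKO summit. The summit lay 40780 bp outside Smurf2, so the presence of both libraries in this window also describes different places.

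At the outer ends of genes, 6 of the 10 members had a WT summit within 1 kb (Tgfbr1, Tgfbr2, Smad2, Smad7, Skil and Smurf2), against 22.6% of all protein-coding genes. Tgfbr1, Tgfbr2 and Skil also had a Tle4cKO summit there, against 5.60% of all genes. Of the 4950 genes with a WT summit at an end, 24.7% had a Tle4cKO summit there too, and of these 6 members 3 did. Ordered by the highest WT score in or at the end of the gene, Skil (6.57), Tgfbr2 (6.52), Smad4 (6.26) and Smad2 (5.80) came first, then Smurf2 (4.54), Smad7 (3.34), Smad3 (2.56) and Tgfbr1 (2.28). With 1 library there is no spread to tell neighbours in this order apart.

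As single summits, 3 of the members' 24 WT summits were shared (12.5%, exact Clopper-Pearson 95% interval 2.66 to 32.4%, for counting error only). Over the whole WT list 18.0% were, which lies inside that interval. The members' share rests on few summits and moved with the setting: it was 33.3% (2 of 6) for summits inside the genes, 27.3% (3 of 11) within 10 kb, 66.7% (2 of 3) with the WT list shortened to its 2350 highest scores, and 4.17% with partners within 200 bp. The whole-list share was not counted at these settings, so 18.0% is no background for them. Over the whole WT list sharing rose from 4.78% in the lowest to 61.3% in the highest decile of score. Of the 5 Tle4cKO summits, 3 had a WT partner (60.0%, 14.7 to 94.7%), against 79.7% of the whole Tle4cKO list. The members' WT scores ran from 2.18 to 13.3 with a median of 4.62, close to the list's median of 4.47. Of the 10 WT summits scoring at least 5, 2 were shared, against 31.7% of all such WT summits. Of the 14 with lower scores, 1 was shared, against 8.76%. The highest of the 24, with 13.3 at the ends of Bckdha and Exosc5, had no partner, and the next highest, at Skil and Tgfbr2, were shared. The shared summit at the Tgfbr1 start was in the lowest decile of WT scores, and only a summit in the Ski window scored lower among the 24.

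**Figure D3:**
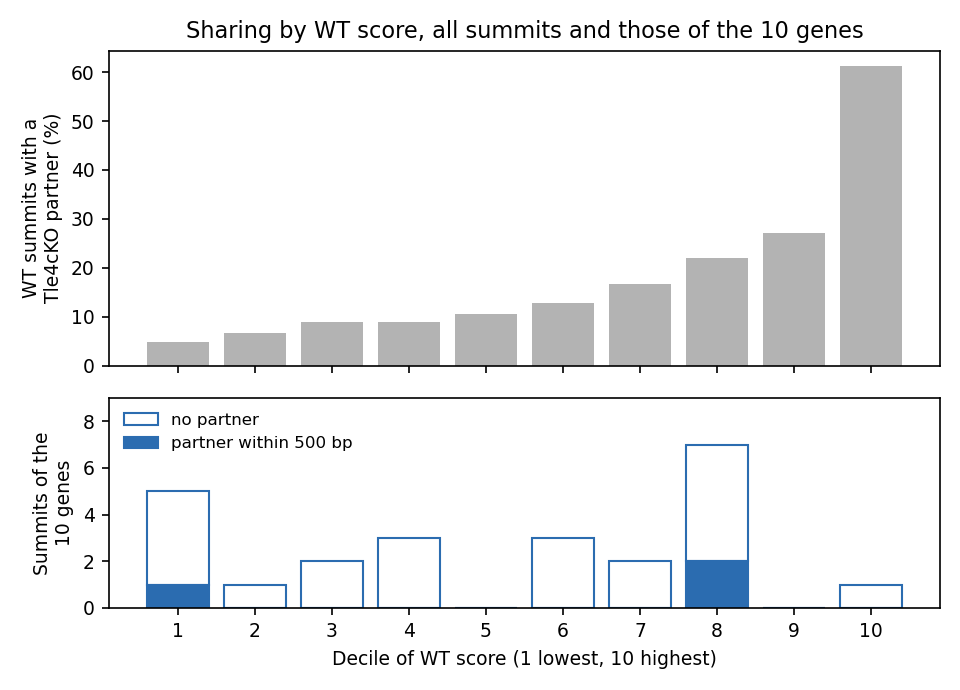
Upper panel, percent of all WT summits with a Tle4cKO summit within 500 bp in each decile of WT score, which runs from 4.78% in the lowest to 61.3% in the highest decile. Lower panel, number of the members' 24 WT summits in each decile, with filled bars for the 3 that were shared, 1 in the lowest decile and 2 in decile 8.

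The edge of the 50 kb window fell among summits. The WT summit just inside it, 49344 bp from Tgfbr1, scored 2.61, and the next one outside, 50700 bp from Tgfbr1, scored 2.98. Outside also lay a WT summit of 8.97, 53997 bp from Tgfb1. The Tle4cKO summit farthest inside a window was that 40780 bp from Smurf2, and the nearest outside were 59569 bp from Tgfbr1 (4.71) and 62499 bp from Smad4 (3.41).

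The other genes of the pathway were taken as 69 genes in 8 roles. The 50 kb window held a WT summit for 50 of the 69 (72.5%) and a Tle4cKO summit as well for 14 (20.3% of the 69), and for none was there a Tle4cKO summit alone. All 14 had a shared site. These shares stood beside 59.6% and 22.9% of all protein-coding genes, so the Tle4cKO share of the wider pathway was near that of genes at large. At a gene end, 9 of the 69 (13.0%) were marked in WT and none in Tle4cKO, where 22.6% of all protein-coding genes were marked in WT and 5.60% in both. The 9 were Zfyve9, Strap, Ppm1a, Tgif1, Ep300, Crebbp, Ncor1, Rnf111 and Id2.

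**Figure D4:**
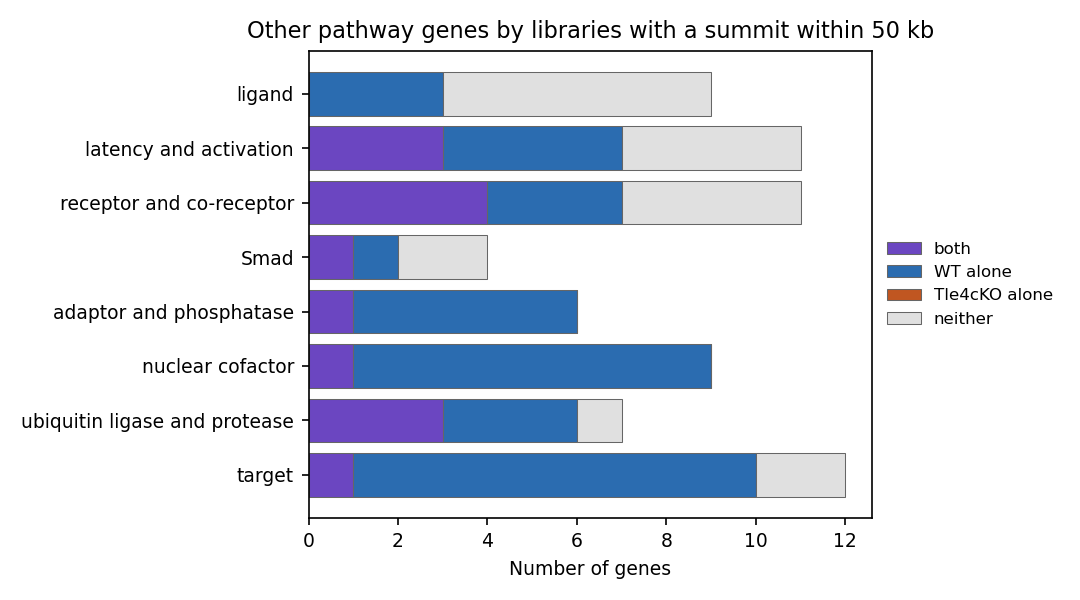
Number of the 69 other pathway genes in each of 8 roles with a summit within 50 kb in both libraries, in WT alone, in Tle4cKO alone or in neither. All 9 nuclear cofactors and all 6 adaptor and phosphatase genes were marked in WT, 1 of each role in both, and no gene in Tle4cKO alone. Over all protein-coding genes 59.6% were marked in WT and 22.0% in both.

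The counts by role stand beside 59.6% of all protein-coding genes with a WT summit within 50 kb and 22.0% with both. Gene lengths of the roles were not compared. Among the 9 ligand genes, 3 were marked within 50 kb in WT and none in Tle4cKO. Gdf15, which encodes a stress-induced member of the TGF-beta superfamily, had a WT summit of 3.80 within 10 kb of the gene. Of 11 genes for latency and activation of TGF-beta, 7 were marked within 50 kb in WT and 3 of them in both. Nrros, whose product tethers latent TGF-beta on macrophages and microglia, had a WT summit alone (7.56) outside the gene. Ltbp1, a latent TGF-beta binding protein gene, had one of 3.18 in its body. Itgav, the integrin alpha V gene, had summits in its body in both libraries, at more than 1 place. Its WT summit scored 4.37 and had a Tle4cKO partner 40 bp away, while the highest Tle4cKO score, 3.23, belonged to another summit, 20103 bp from the WT summit. At Ltbp2 the summits, 5.57 in WT and 2.94 in Tle4cKO, were 2 bp apart and lay at the ends of Isca2 and Npc2.

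Of 11 receptor and co-receptor genes, 7 were marked within 50 kb in WT and 4 of them in both. Acvrl1, a type I receptor gene, had shared summits of 4.33 in WT and 3.72 in Tle4cKO, 259 bp apart and outside the gene. The activin receptor genes Acvr1 (5.71) and Acvr2b (4.77) had WT summits alone within 10 kb, in their bodies. None of the 11 was marked at a gene end by either library, against the 22.6% in WT and 5.60% in both over all genes. Of the 4 remaining Smad genes, Smad1 had a WT summit alone in its body (5.40). Smad9 had summits in both within 10 kb, 7.89 in WT and 3.73 in Tle4cKO and 4 bp apart, at the end of its neighbour Rfxap. Smad5 and Smad6 had none within 50 kb.

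All 6 adaptor and phosphatase genes and all 9 nuclear cofactors were marked within 50 kb in WT, and 1 gene of each role in both. Over all protein-coding genes these shares were 59.6% and 22.0%, and both roles are small. Zfyve9, the gene of the SARA adaptor that presents Smads to the receptor, had a gene-end summit of 6.04 in WT alone, and Strap 4.38. Ncor1, a nuclear receptor corepressor gene, had a gene-end summit of 5.85 in WT alone, also at the end of Pigl. Crebbp, the gene of the acetyltransferase CBP, had WT summits alone, of which the highest (5.90) lay at the end of its neighbour Trap1.

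Of 7 ubiquitin ligase and protease genes, 6 were marked within 50 kb in WT and 3 of them in both. Trim33, a ligase that acts on Smad4, had shared summits in its body, 5.43 in WT and 4.17 in Tle4cKO, 169 bp apart. Rnf111, the gene of the Arkadia ligase that degrades SnoN and Smad7, had a gene-end summit of 6.00 in WT alone, and Smurf1 a WT summit of 2.93 in its body. Of 12 target genes, 10 were marked within 50 kb in WT and 1 of them, Junb, in both. The highest WT summit near Junb (6.52) lay at the ends of Prdx2 and Rnaseh2a, and Cdkn1a, a cell cycle inhibitor gene, had a WT summit alone in its body (4.26).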

How the data were processed

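The authors deposited 1 list of summits per library, and per the labels' protocols the cells of 4 mice were pooled for each. Per the submitters' processing notes, cutadapt 1.14 and Bowtie2 2.2.5 were used and the build was mm10. Peak caller, control and depth were not given in the sources used here. Deposited scores were taken to be −log10 p- or q-values (it is unstated which), since the lowest scores, 1.35 in WT and 1.37 in Tle4cKO, lie just above 1.30, which corresponds to 0.05. The 4 WT and 2 Tle4cKO mitochondrial summits were left out. Gene ends came from a RefSeq table on GRCm38.p6, and start sites and strand from the RefSeq promoter table, which has entries for 6 of the 10 genes. Every summit in a gene or within 50 kb was taken. Summits within 500 bp of the other list were called shared. Intervals are exact at 95%. Counting used Python 3.11.15, pandas 2.3.3 and SciPy 1.17.1. The counting steps were tested on simulated data. Alternatives were other windows, partner distances and gene-end limits, a score minimum, and a WT list shortened to as many summits as the Tle4cKO list.

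All 10 members are named. Other pathway genes are named by the highest score within 10 kb, at most 2 per role and class (both, WT alone, Tle4cKO alone), besides those behind a count. The members and lists were chosen with earlier results of these data known. As each genotype has 1 library, genotypes were compared by counts with no test. 1 gene of the marker lists is not reported here.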

Additional observations from a re-analysis of the deposited data

How the results depend on the processing

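Of 51 alternative counts for 11 results, 25 were within 1.5 times the value reported and 26 were not. These counts leave aside the number of summits each is out of. As shares, the members' shared WT summits moved from 12.5% to 33.3% with the gene alone and to 66.7% with the shortened WT list. Both values lie outside the interval given. That interval is for counting error and does not measure a move to a part of the same summits. Whole-list shares were not counted at these settings, so the moves cannot be read as particular to the members. The shared Tle4cKO summits moved from 60.0% to 100% with the gene alone (2 of 2) and at scores of at least 5 (1 of 1). No paired analysis was possible because each genotype has 1 library. With the gene alone as window, members with a WT summit fell from 10 to 6, with a Tle4cKO summit from 5 to 2 and with both from 5 to 2, and the same counts of the 69 other pathway genes went from 50, 14 and 14 to 18 (26.1%), 2 (2.90%) and 2. That window held a WT summit for 25.3% and a Tle4cKO summit for 7.26% of all protein-coding genes. With 10 kb on each side, 8 members had a WT summit, 4 a Tle4cKO summit and 3 both. Tgfb1 then had a Tle4cKO summit alone. That window held a WT summit for 39.2% and a Tle4cKO summit for 11.6% of all protein-coding genes. The pathway counts were 31 (44.9%), 5 (7.25%) and 5. At scores of at least 5, members with a Tle4cKO summit numbered 1 and with both 1, and the pathway counts were 26, 3 and 3. With the WT list cut to the 2350 highest scores (6.37 and above), 3 members had a WT summit and 3 both, 2 had a WT summit at a gene end, and 12 pathway genes had a WT summit and 5 both. With partners within 200 bp, 1 of 24 WT and 1 of 5 Tle4cKO summits of the members were shared, the pair at Skil. At scores of at least 5 in both lists, 1 of 10 WT and 1 of 1 Tle4cKO summits were. With gene ends of 500 bp, 1 member had a Tle4cKO summit and 1 had both, instead of 3 and 3. Shares over all protein-coding genes were not counted at scores of at least 5, with the shortened WT list or with these narrower ends. Those counts thus have no background. With 100 kb on each side, 10 members had a WT summit, 7 a Tle4cKO summit and 7 both, also without a background share. What moved each count was not tested. Depth, which is unknown, limits every statement that a summit was not called.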
